A study of Mus musculus with 18 samples.

Results

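Lipid-associated macrophages are macrophages that gather where lipid is released or stored in excess, and 10 of their usual marker genes were followed here in mouse liver: Gpnmb, Trem2, Cd9, Spp1, Lgals3, Itgax, Tyrobp, Lyz2, Msr1 and Clec7a. The members were all probe sets of the Mouse430_2 Affymetrix array that the platform annotation pairs with exactly 1 of these symbols. This gave 14 probe sets for 9 genes, out of 18193 genes paired in this way on the array. No probe set was paired with Spp1, the gene of osteopontin, in the annotation used, so Spp1 was not analysed here. The 9 genes all had a mean level above the filter that removed genes under the 25th percentile of brightness, which left 13645 genes for testing.

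TREM2 is a lipid-binding receptor of macrophages and microglia that has no signalling tail of its own. It signals through the adaptor TYROBP (DAP12), which is phosphorylated and recruits the kinase SYK, and this pathway drives the state in which macrophages take up lipid, enlarge their lysosomes and express Gpnmb, Cd9, Spp1 and Lgals3. In fatty liver, such cells derive largely from recruited monocytes and lie beside the resident macrophages of the liver, the Kupffer cells.

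The livers came from male C57BL/6J mice that arrived at 5 weeks of age, ate standard chow for 1 week and were then fed 1 of 3 diets for 20 weeks. The Western plus quercetin group ate a Western-style diet with 0.05% quercetin, a plant flavonol. The Western group ate the same diet without it, in which 39.9% of the energy came from fat and 34.0% from sucrose, with 20% butter, 1% soy oil and 0.15% cholesterol. The control group ate AIN93G, a purified rodent diet. Mice were housed 3 per cage, and the labels do not say which mice shared a cage. Each group had 6 arrays with the RNA of 1 mouse each. Whole liver was measured, so more cells of a type and more RNA per cell cannot be told apart in any result given here.

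The deposited signals differed in overall level between arrays, with medians from 12.71 to 23.17, and were quantile normalised as log2(signal + 16), which is called the log2 level below. A fold is therefore a ratio of signal + 16, which understates changes of dim genes. Control arrays 4 and 5 were nearly identical (SD of log2 differences 0.0474 over 2673 bright probe sets, against 0.161 for the next closest of 153 pairs) and were averaged and counted as 1 sample, so n = 6, 6 and 5 in the Western plus quercetin, Western and control groups. A gene was called changed at an adjusted p under 0.05 in limma, with Benjamini-Hochberg adjustment over all 13645 genes. By this rule 1180 genes differed between the Western and the control group, 749 of them higher in the Western group. With the values as deposited, in which the median gene was higher by 0.22 on the log2 scale in the Western group, 3725 differed, 3641 of them higher. With array medians centred 1284 differed, 1108 of them higher. Hepatocyte genes were bright in every group: the normalised signals of 9 hepatocyte markers, with the 16 subtracted again, summed to between 53681 and 57197, 53029 and 56213, and 56709 and 59972 in the Western plus quercetin, Western and control groups. All sums of marker signals below are on this normalised scale.

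The start regions are shown of the members whose window held a motif searched for here. These were 3 members that rose on the Western-style diet, Gpnmb, Itgax and Clec7a, and Trem2, which did not pass the test. RefSeq promoter windows of the GRCm38.p6 build, 300 bases from 250 before to 50 after a gene's start, were listed for 7 of the 9 measured genes. They were searched on both strands for the PU.1 box GAGGAA (in 28.3% of 32851 mouse promoter windows of this length), the lysosomal gene E-box TCACGTG (3.77%), the M-box TCATGTG (3.77%) and the AP-1 site TGANTCA (7.81%). No motif contains another. Capitals mark the motifs found in the following windows, each printed 5′ to 3′ along the gene's strand.
Gpnmb, chr6:49036268-49036567, plus strand: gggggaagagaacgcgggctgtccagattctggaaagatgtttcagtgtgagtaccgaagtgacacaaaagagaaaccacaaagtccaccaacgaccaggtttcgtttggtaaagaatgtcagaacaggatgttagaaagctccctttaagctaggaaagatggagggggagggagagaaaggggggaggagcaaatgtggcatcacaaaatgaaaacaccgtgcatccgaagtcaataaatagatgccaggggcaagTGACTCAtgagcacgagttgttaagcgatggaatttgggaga
Itgax, chr7:128129300-128129599, plus strand: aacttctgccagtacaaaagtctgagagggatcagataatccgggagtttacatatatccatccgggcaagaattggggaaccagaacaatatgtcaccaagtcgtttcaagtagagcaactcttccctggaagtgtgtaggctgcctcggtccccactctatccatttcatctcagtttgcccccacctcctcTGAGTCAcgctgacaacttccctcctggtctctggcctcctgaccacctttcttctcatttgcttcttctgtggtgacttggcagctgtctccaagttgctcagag
Clec7a, chr6:129472730-129473029, minus strand: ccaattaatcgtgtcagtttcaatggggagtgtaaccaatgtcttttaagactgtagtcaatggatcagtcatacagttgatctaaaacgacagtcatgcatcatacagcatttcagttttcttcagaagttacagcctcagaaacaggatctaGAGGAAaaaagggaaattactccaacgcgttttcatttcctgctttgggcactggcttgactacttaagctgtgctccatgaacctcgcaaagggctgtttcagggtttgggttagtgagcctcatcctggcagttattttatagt
Trem2, chr17:48346151-48346450, plus strand: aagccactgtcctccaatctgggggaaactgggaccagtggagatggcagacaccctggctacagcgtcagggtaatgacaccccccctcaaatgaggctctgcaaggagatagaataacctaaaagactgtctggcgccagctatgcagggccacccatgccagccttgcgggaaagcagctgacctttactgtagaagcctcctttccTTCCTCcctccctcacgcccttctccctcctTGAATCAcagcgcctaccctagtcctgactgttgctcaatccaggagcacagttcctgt
The Gpnmb window held an AP-1 match that begins at base 9 after the start, and the Itgax window held one that begins at base -56. Clec7a had a PU.1 box at -96, which stood at -90 in its second listed window (not shown). Trem2 had a PU.1 box on the opposite strand at -40 and an AP-1 match at -9. The windows of Cd9, Lgals3 and Lyz2, of which Lgals3 and Lyz2 also rose, held none of the searched letters. Those of Tyrobp and Msr1 were not listed.

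The first question was how these genes differ in liver between the Western-style and the control diet. Gpnmb, Lgals3, Clec7a, Lyz2, Tyrobp and Itgax rose in the Western group, by 1.60-fold to 5.62-fold, and none of the 9 genes fell. Cd9, Msr1 and Trem2 did not pass the test. The calls of 6 of 9 genes higher and 0 lower stand beside 5.49% of all genes tested called higher and 3.16% called lower, or 8.65% in either direction. An unadjusted p under 0.05 was found in 7 of the 9 genes and in 23.3% of all genes. All 9 differences were positive, that of Trem2 by only 0.01, where 46.97% of all genes had a positive difference. Their median was 0.83 on the log2 scale, where the median over all genes was -0.01. In 4 of the genes, Gpnmb, Lgals3, Clec7a and Lyz2, every Western mouse lay above every control mouse, which held for 4.17% of all genes.

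Gpnmb encodes a transmembrane glycoprotein of lysosomes and endosomes. Its brighter probe set read log2 levels of 5.68, 7.06 and 8.07 (lowest, median and highest) in the Western plus quercetin group, and 6.07, 7.14 and 7.42 in the Western group. The 5 control samples read 4.92, 4.15, 4.30, 4.60 and 4.68. The control mean of 4.53 lay below the dim limit of 4.56, so Gpnmb was tested only because of its level in the Western-fed mice. In deposited signal units the medians were 130 in the Western plus quercetin group, 135 in the Western group and 7.08 in the control group. On the log2 scale Gpnmb differed by 2.49 ± 0.31 (SE) between the Western and the control group, or 5.62-fold (limma, adjusted p = 0.000157). This size depends on the scale: over the 33 alternatives, in all of which the call was kept, it ran from 1.33 with a pseudocount of 64 to 4.03 with a pseudocount of 1. The second probe set was dim, at the 14.21th percentile of all probe sets, and did not pass (difference 0.20; adjusted p = 0.307 over all 45037 probe sets).

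Lgals3 encodes galectin-3, a secreted lectin that binds galactosides and gathers on damaged lysosomes. It had log2 levels of 7.48, 8.44 and 9.57 (lowest, median, highest) in the Western plus quercetin group, and 7.84, 8.66 and 9.31 in the Western group. The control samples read 6.96, 6.83, 6.85, 7.23 and 6.93. The lowest Western-fed mouse was thus above the highest control. The Western group differed from the control group by 1.73 ± 0.28 (SE), or 3.32-fold (limma, adjusted p = 0.00114).

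Lyz2 encodes lysozyme M, the bactericidal enzyme of macrophages and granulocytes. It was bright in all groups, with means of 10.17 ± 0.67 in the Western plus quercetin group, 10.20 ± 0.37 in the Western group and 8.79 ± 0.19 in the control group (SD; n = 6, 6 and 5). Its difference between the Western and the control group was 1.41 ± 0.25 (SE), or 2.65-fold (limma, adjusted p = 0.00239). Lyz1 is a near-identical copy that rose by 1.21 on the log2 scale (adjusted p = 0.00449), and the array probes may not separate the copies.

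Clec7a encodes Dectin-1, the receptor for fungal beta-glucan, which also signals through SYK. It had log2 levels of 7.56, 8.36 and 9.21 (lowest, median, highest) in the Western plus quercetin group, and 7.75, 8.72 and 9.04 in the Western group. The control samples read 7.29, 6.91, 6.85, 7.35 and 6.70. No control reached the lowest Western-fed mouse. The difference between the Western and the control group was 1.60 ± 0.26 (SE), or 3.02-fold (limma, adjusted p = 0.00130).

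Trem2, the receptor that gives the pathway its name, was dim. Its brighter probe set stood at the 28.57th percentile of genes, with means of 4.77 ± 0.27 in the Western plus quercetin group, 4.61 ± 0.09 in the Western group and 4.59 ± 0.31 in the control group (SD; n = 6, 6 and 5). The groups overlapped, and the highest of the 17 values was that of control 1, at 5.10. The difference between the Western and the control group was 0.01, with a 95% interval from -0.27 to 0.30 (adjusted p = 0.971), and its sign turned to -0.07 with array medians centred. The second Trem2 probe set, whose probes may match several transcripts, read 5.47 and 5.49 in Western plus quercetin mice 2 and 5 and 5.28 and 5.16 in Western mice 1 and 4, while the highest of the 5 controls read 4.39. Its mean difference between the Western and the control group was 0.42 and did not pass (adjusted p = 0.457 over all probe sets). The median deposited signals of the brighter probe set were 11.6, 7.97 and 6.17 in the Western plus quercetin, Western and control groups, below the pseudocount of 16, which compresses differences at this brightness.

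Tyrobp, the adaptor of TREM2, was bright. It had log2 levels of 8.30, 8.76 and 9.90 (lowest, median, highest) in the Western plus quercetin group and 8.50, 8.9996 and 9.48 in the Western group, and the control samples read 8.53, 8.14, 8.02, 8.06 and 8.06. Control 1 lay just above the lowest Western mouse, so the groups overlapped. Tyrobp was 1.78-fold higher in the Western than in the control group (difference 0.83 ± 0.22, SE; limma, adjusted p = 0.0261).

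Itgax encodes CD11c, an integrin chain of dendritic cells and of activated macrophages. It had log2 levels of 5.36, 5.80 and 6.63 in the Western plus quercetin group, 5.39, 6.06 and 6.55 in the Western group, and 5.20, 5.31 and 5.71 in the control group (lowest, median, highest). It was 1.60-fold higher in the Western than in the control group (limma, adjusted p = 0.0473). This call sat at the threshold and was lost in 19 of 33 alternative settings, with an adjusted p of up to 0.518, and that of Tyrobp in 10 of 33, with an adjusted p of up to 0.327.

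Msr1 encodes the class A scavenger receptor, which takes up modified lipoproteins, and Cd9 encodes a tetraspanin of the cell surface. Msr1 was read by 4 probe sets. The brightest averaged 7.11 ± 0.39 in the Western plus quercetin group, 7.21 ± 0.31 in the Western group and 6.59 ± 0.31 in the control group, and its difference of 0.61 between the Western and the control group just missed the threshold (limma, adjusted p = 0.0512). It passed in 13 of 33 alternative settings, with an adjusted p from 0.00635 to 0.546 over them. In the fit over all probe sets, in which 1.95% were higher at the threshold, the third brightest Msr1 probe set passed (difference 0.48, adjusted p = 0.0468), the second brightest did not (0.41, adjusted p = 0.259) and the dimmest had a difference of -0.11 (adjusted p = 0.792). Cd9 averaged 7.64 ± 0.56, 7.62 ± 0.45 and 7.17 ± 0.24 in the Western plus quercetin, Western and control groups (SD; n = 6, 6 and 5), and its difference of 0.45 between the Western and the control group did not pass (adjusted p = 0.287).

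**Figure D1:**
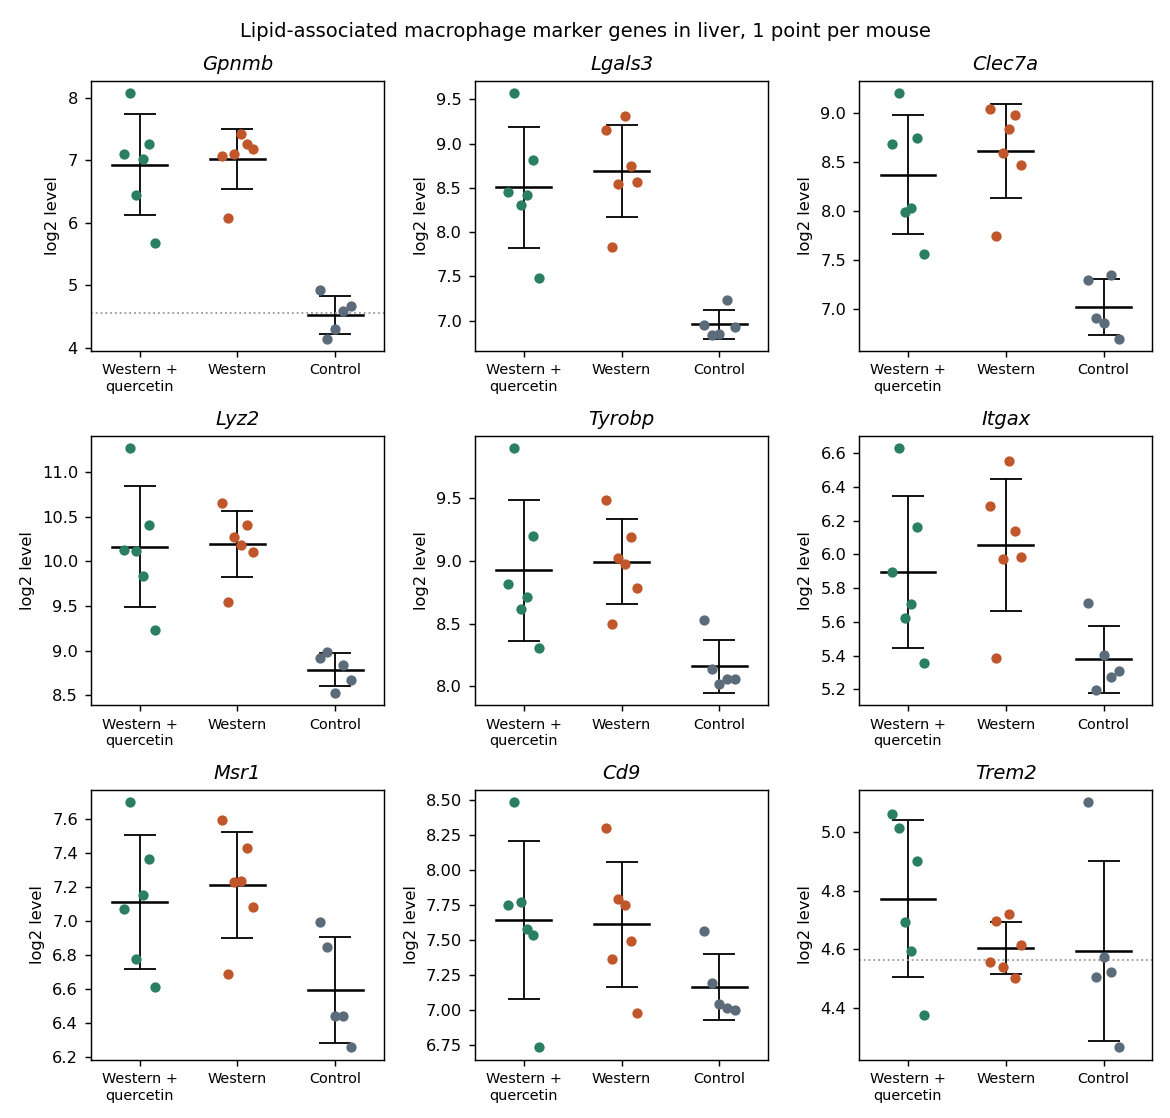
Log2 level (log2 of normalised signal + 16) of the 9 measured genes, 1 point per mouse, in the Western plus quercetin, Western and control groups; bars are the mean and SD, and the dotted line in the Gpnmb and Trem2 panels is the dim limit of 4.56. In the panels of Gpnmb, Lgals3, Clec7a and Lyz2 all Western-fed mice lie above all controls, and in the Trem2 panel the groups overlap.

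The array's quality probes moved with these comparisons. The log2 ratio of the 3′ to the 5′ actin probe set, which follows RNA integrity, was 0.55 ± 0.08 in the Western plus quercetin group, 0.54 ± 0.11 in the Western group and 0.68 ± 0.06 in the control group (SD; n = 6, 6 and 5). The difference of -0.14 between the Western and the control group had a two-sided exact permutation p of 0.0325, and that of -0.13 between the Western plus quercetin and the control group had an exact p of 0.0195. With this ratio as a covariate, 3 members remained higher in the Western group at the threshold: Gpnmb with a difference of 2.46 (limma, adjusted p = 0.00570), Clec7a with 1.56 (adjusted p = 0.0314) and Lgals3 with 1.51 (adjusted p = 0.0375). Lyz2 then had a difference of 1.23 (adjusted p = 0.0586). In that fit 1.66% of all genes were called.

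Quercetin was tested within the Western-style diet by setting the Western plus quercetin group against the Western group. None of the 9 genes was called in limma, none had an unadjusted p under 0.05, and no gene separated the groups, where 0% of all genes were called, 2.87% had an unadjusted p under 0.05 and 0.0660% lay higher in every Western plus quercetin mouse. The differences were negative in 7 genes and positive in Trem2 and Cd9, with a median of -0.09, where 47.74% of all genes had a positive difference. That of Gpnmb was -0.09, with a 95% interval from -0.72 to 0.54. That of Lgals3 was -0.18 (interval -0.75 to 0.38), and that of Clec7a was -0.24 (interval -0.77 to 0.29). For Lyz2 the difference was -0.03 (interval -0.54 to 0.48), and for Trem2 it was 0.17 (interval -0.10 to 0.44). The adjusted p was above 0.99 for each.

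The SD of the log2 level was larger in the Western plus quercetin than in the Western group for all 9 genes (0.81 against 0.48 for Gpnmb), a difference that was not tested. The share of all genes with a larger SD is not given here, so this count shows nothing particular to the members. General macrophage genes such as Cd68 (0.57 against 0.40) and Adgre1 (0.57 against 0.29) also had a larger SD, while Cd14 did not (0.39 against 0.41). Western plus quercetin mouse 2 had the highest and mouse 6 the lowest level of the group in Gpnmb, Lgals3, Clec7a, Lyz2, Tyrobp, Itgax, Msr1 and Cd9 (8.07 and 5.68 for Gpnmb, 9.57 and 7.48 for Lgals3). The labels number the mice 1 to 6 in each group without saying what the numbers stand for. Among mice numbered 1 to 3 the quercetin difference was positive in 9 of 9 genes, and among those numbered 4 to 6 in 1 of 9. The matching shares of all genes are not given here, so the counts show nothing particular to the members. Mouse 2 stands in the first set and mouse 6 in the other. Most members vary together between mice, so the 9 genes are not 9 separate observations. For Gpnmb the quercetin difference was 0.46 among the first and -0.64 among the other mice, for Lgals3 0.27 and -0.64, and for Lyz2 0.35 and -0.41. The test of this difference passed for none of the members (limma interaction, adjusted p from 0.937 to 0.969) and for 0% of all genes. The matching test of the difference between the Western and the control group passed for none of the members and for 0.00733% of all genes. The difference between the Western and the control group was positive in both sets of numbers for every gene but Trem2, at 2.29 and 2.65 for Gpnmb. With the numbers 1 to 3 alone, Gpnmb was the 1 member called between the Western and the control group (limma, adjusted p = 0.0444), in a fit that called 0.652% of all genes.

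The Western plus quercetin group was also set against the control group. Gpnmb, Lgals3, Lyz2 and Clec7a rose, and the other 5 genes did not pass, where 3.43% of all genes were called higher, 1.98% lower and 5.41% in either direction, and 19.9% had an unadjusted p under 0.05. Gpnmb was 5.29-fold higher (limma, adjusted p = 0.000265) against the same dim control level, with log2 differences from 1.22 to 3.91 over the alternatives. Lgals3 was 2.92-fold higher (adjusted p = 0.00368), Lyz2 2.60-fold (adjusted p = 0.00420) and Clec7a 2.55-fold (adjusted p = 0.00559). In these 4 genes all Western plus quercetin mice lay above all controls, which held for 2.55% of all genes. Tyrobp had a difference of 0.76 (adjusted p = 0.0520) and passed in 11 of 33 alternative settings (adjusted p from 0.00644 to 0.251). Itgax and Msr1 had differences of 0.52 each (adjusted p = 0.159 and 0.128), Cd9 0.48 (adjusted p = 0.286) and Trem2 0.18 (adjusted p = 0.500). In the limma fit over all probe sets, 1.21% were higher at the threshold. There the third brightest Msr1 probe set just passed (difference 0.50, adjusted p = 0.0496), and its other probe sets did not. This comparison shares the control mice with the diet comparison and is no independent repeat of it. The numbers 4 to 6 alone left 0 of the 9 genes called, in a fit that called 0.271% of all genes, and the actin covariate left Gpnmb alone (difference 2.38, adjusted p = 0.00727).

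**Figure D2:**
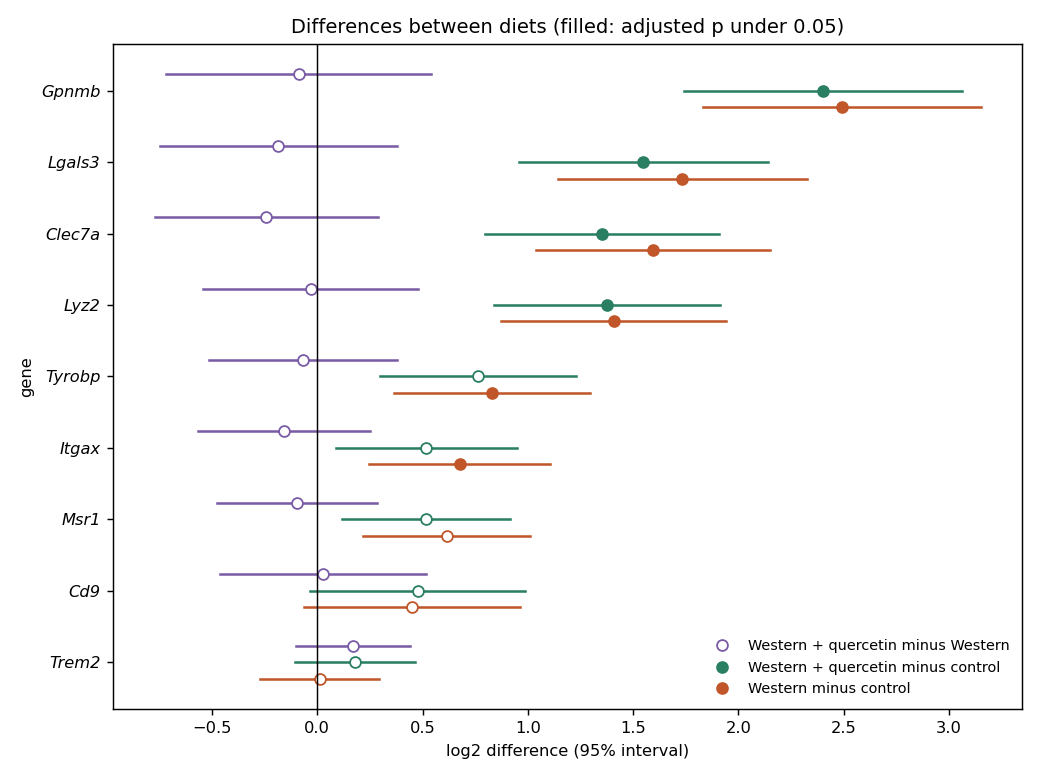
Log2 difference with its 95% interval for each gene, given for Western plus quercetin minus Western, Western plus quercetin minus control and Western minus control; filled points passed the test over all genes. Both intervals against the control diet lie to the right of 0 for Gpnmb, Lgals3, Clec7a, Lyz2, Tyrobp, Itgax and Msr1. Of these, Gpnmb, Lgals3, Clec7a and Lyz2 passed the test in both comparisons. Every interval of the quercetin comparison within the Western-style diet spans 0.

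General macrophage genes also rose on the Western-style diet. Of 10 pan-macrophage markers 7 rose in the Western group and none fell, with a median of 0.60, among them Mpeg1, a pore-forming protein of phagocytes (0.93), Cd14, the co-receptor for lipopolysaccharide (1.05), and Cd68, a lysosomal glycoprotein (1.14). The normalised signals of the 10 markers summed to between 3063 and 6750 in the Western plus quercetin group, 3407 and 5448 in the Western group and 2400 and 2844 in the control group. Adgre1, which encodes F4/80, had a difference of 0.45 and did not pass (adjusted p = 0.212). Itgam, among the 7 that rose, had a control mean of 4.51, below the dim limit of 4.56.

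Each member was therefore also expressed relative to the mean log2 level of these 10 markers in the same sample, a scale added after the data had been seen. The marker mean was 7.85 ± 0.38 in the Western plus quercetin group, 7.93 ± 0.24 in the Western group and 7.25 ± 0.09 in the control group (SD; n = 6, 6 and 5). On this scale the median gene of the array was lower by 0.70 in the Western group, and 0.454% of genes were called higher and 87.8% lower. Gpnmb, Lgals3, Clec7a and Lyz2 were higher relative to the markers in the Western than in the control group, by 1.80 (3.49-fold), 1.04 (2.06-fold), 0.91 (1.87-fold; adjusted p = 0.000664) and 0.72 (1.64-fold; adjusted p = 0.00143). Tyrobp had a relative difference of 0.14 (adjusted p = 0.422), Itgax -0.01 (adjusted p = 0.943), Msr1 -0.07 (adjusted p = 0.675) and Cd9 -0.24 (adjusted p = 0.211), and none of these passed. Trem2 was lower relative to the markers by 0.68 (difference -0.68, adjusted p = 0.00246), close to the shift of the median gene. The Western plus quercetin group gave 1.79 for Gpnmb, 0.94 for Lgals3, 0.75 for Clec7a and 0.77 for Lyz2 against the control group, with 0.432% of genes called higher and 81.9% lower, and between the Western plus quercetin and the Western group none of the 9 passed (adjusted p = 1.00).

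**Figure D3:**
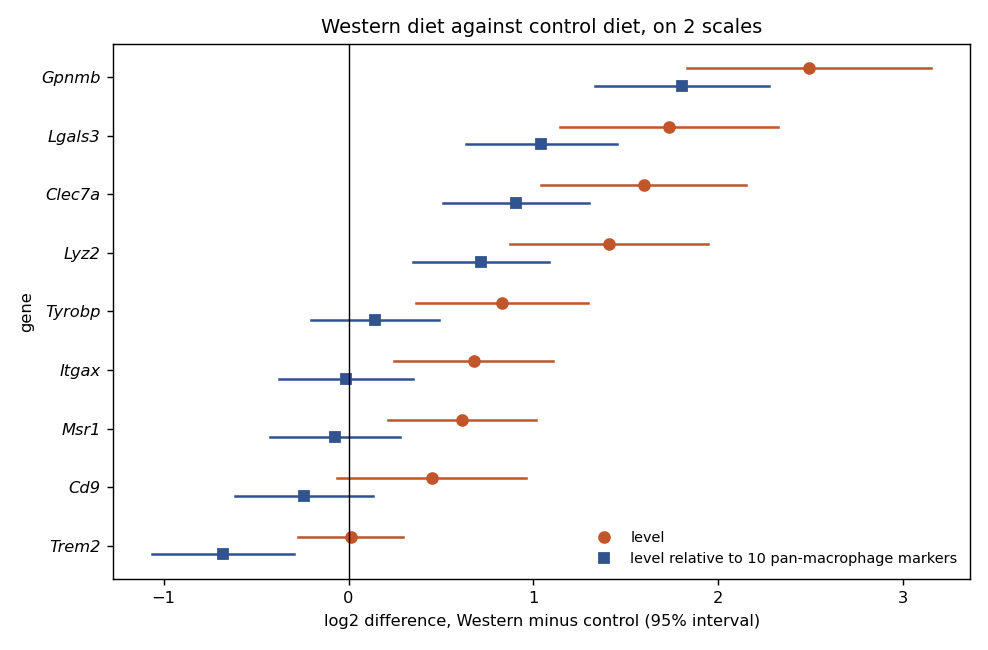
Log2 difference between the Western and the control group with its 95% interval, as the level and as the level relative to the mean of 10 pan-macrophage markers. Gpnmb, Lgals3, Clec7a and Lyz2 stay right of 0 on both scales, and Tyrobp, Itgax, Msr1 and Cd9 lie within 0.24 of 0 on the relative scale. On both scales the pseudocount compresses the differences of dim genes such as Itgax and Trem2.

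Other cell types moved less evenly. Of 10 markers of resident Kupffer cells Cd5l, a secreted scavenger protein, rose (1.01, adjusted p = 0.00406) and Cd163, the haemoglobin scavenger receptor, fell (-1.15, adjusted p = 0.00285) in the Western group. The other 8 did not pass, at 0.56 for Vsig4, 0.41 for C6, 0.40 for Clec4f, 0.34 for Folr2, 0.26 for Il18bp, -0.02 for Slc40a1, -0.40 for Timd4 and -0.83 for Marco. Over the list 6 of 10 differences were positive and the median was 0.30. The Kupffer markers' signals summed to between 4793 and 9647, 5470 and 8046, and 4535 and 4972 in the Western plus quercetin, Western and control groups. Of 6 measured monocyte markers Cx3cr1 (0.68), S100a4 (0.81), Plac8 (0.56) and Chil3 (0.71) rose. Ccr2 (0.68; limma, adjusted p = 0.0771) and Fn1 (-0.11, adjusted p = 0.364) did not pass. The control mean of Chil3, 4.29, lay below the dim limit of 4.56, so Chil3 was tested only because of its level in the Western-fed mice. The monocyte sums were 3059 to 3784, 3411 to 3685 and 3221 to 3873, in which Fn1 (mean 11.61 in the Western group) outweighs the other markers. Ly6c2 was not tested.

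Granulocytes also express Lyz2 and Lgals3, and dendritic cells express Itgax. None of 5 neutrophil markers passed in the Western against the control group (S100a8 0.71, adjusted p = 0.133), and none of 6 dendritic cell markers did (largest difference 0.25, H2-DMb2). The neutrophil sums were 103.1 to 314.2, 118.0 to 199.7 and 88.2 to 138.9 signal units in the Western plus quercetin, Western and control groups, and the dendritic sums 98.6 to 155.3, 101.4 to 133.3 and 85.6 to 135.7. None of 3 T or NK cell markers passed, and of 5 B cell markers Jchain fell (-0.38). Cd9 is also made by many cells other than macrophages. Of 8 stellate cell markers 4 rose, among them Rgs5 (0.80) and Dcn (0.64), with sums of 2820 to 4365, 2856 to 3908 and 2381 to 2567, and none of 5 cholangiocyte markers passed, with sums of 44.5 to 74.7, 43.2 to 102.8 and 31.4 to 70.4. Of 8 endothelial markers Lyve1 and Vwf rose, of 4 platelet markers Pf4 rose, and of 9 hepatocyte markers Tat fell (-0.79). Of 2 tested adipocyte markers Fabp4 rose and Retn did not pass (-0.24), while Adipoq, Plin1, Cfd and Lep were dim or had no probe set of their own. The lowest value of the whole table was 0.0118, so a signal above 0 does not show that a marker was detected. Several of these markers lay near the dim limit of 4.56, such as Mpo, Flt3 and Cd3e, with Western group means of 4.65, 4.67 and 4.71. The neutrophil markers S100a8 and S100a9 were brighter, at 6.31 and 5.97. The pseudocount compresses differences of dim markers, which therefore say little about their cell types. The part of these cell types in the members' differences was not tested.

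Signalling genes around TREM2, TYROBP and Dectin-1 were called in part. Of 13 tested genes 6 rose in the Western group, with a median of 0.33: Fcer1g, the other common adaptor of myeloid receptors (0.74, adjusted p = 0.0232), Clec4n, which encodes Dectin-2 (0.67, adjusted p = 0.0245), Clec4d (0.33), the kinase Syk (0.60, adjusted p = 0.0330), and the phosphatases Inpp5d (0.51, adjusted p = 0.0315) and Ptpn6 (0.62, adjusted p = 0.0331). The control mean of Clec4d, 4.558, lay just below the dim limit of 4.564, so Clec4d passed the filter only through the Western-fed mice. In the Western plus quercetin against the control group Clec4n (0.78) and Syk (0.63) passed. The list of lipid handling and lysosome genes had 13 of 22 higher in the Western group, none lower, and a median of 0.50. Its leading genes were Fabp4, a fatty acid carrier of adipocytes and macrophages (3.33-fold, adjusted p = 0.000348), Mmp12, the macrophage elastase (5.05-fold, adjusted p = 0.000474), Lpl, lipoprotein lipase (3.81-fold, adjusted p = 0.00102), and Anxa2, an annexin of membrane repair (3.41-fold, adjusted p = 0.00108). Cd68 and Ctss stand in this list and among the pan-macrophage markers.

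Among scavenger and uptake receptors, the family role of Msr1, Axl (0.97), Cd68 (1.14) and Cd36 (0.83) rose, Cd163 fell and 8 did not pass, with a median of 0.17. Of 10 partners and receptors of osteopontin and CD11c, Cd44, a receptor of osteopontin (0.96, adjusted p = 0.0196), Itgb2, the beta chain that pairs with CD11c (0.97, adjusted p = 0.0316), and Itgam (0.33) rose. The control mean of Itgam, 4.51, lay below the dim limit of 4.56, so Itgam was tested only because of its level in the Western-fed mice. The relatives of Lgals3, Cd9 and Lyz2 split: Lgals1 (1.08, adjusted p = 1.58e-05), Lgals3bp (0.53), Cd53 (0.95), Cd81 (0.36) and Lyz1 (1.21) rose, 7 did not pass and the median was 0.07. Of 12 regulators of macrophage number and state, Pparg, the lipid-activated nuclear receptor (1.04, adjusted p = 0.000764), Csf2rb, the shared receptor chain of GM-CSF (0.82, adjusted p = 0.00125), Spi1, which encodes PU.1 (0.54, adjusted p = 0.0344), Irf8 (0.42) and Mitf (0.28) rose, with a median of 0.31. No gene of any of these lists was called between the Western plus quercetin and the Western group. The members of these lists with the smallest p in limma there were Cx3cr1 (difference -0.28), Itgam (-0.25) and Mitf (-0.18), each with an adjusted p of 1.00.

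**Figure D4:**
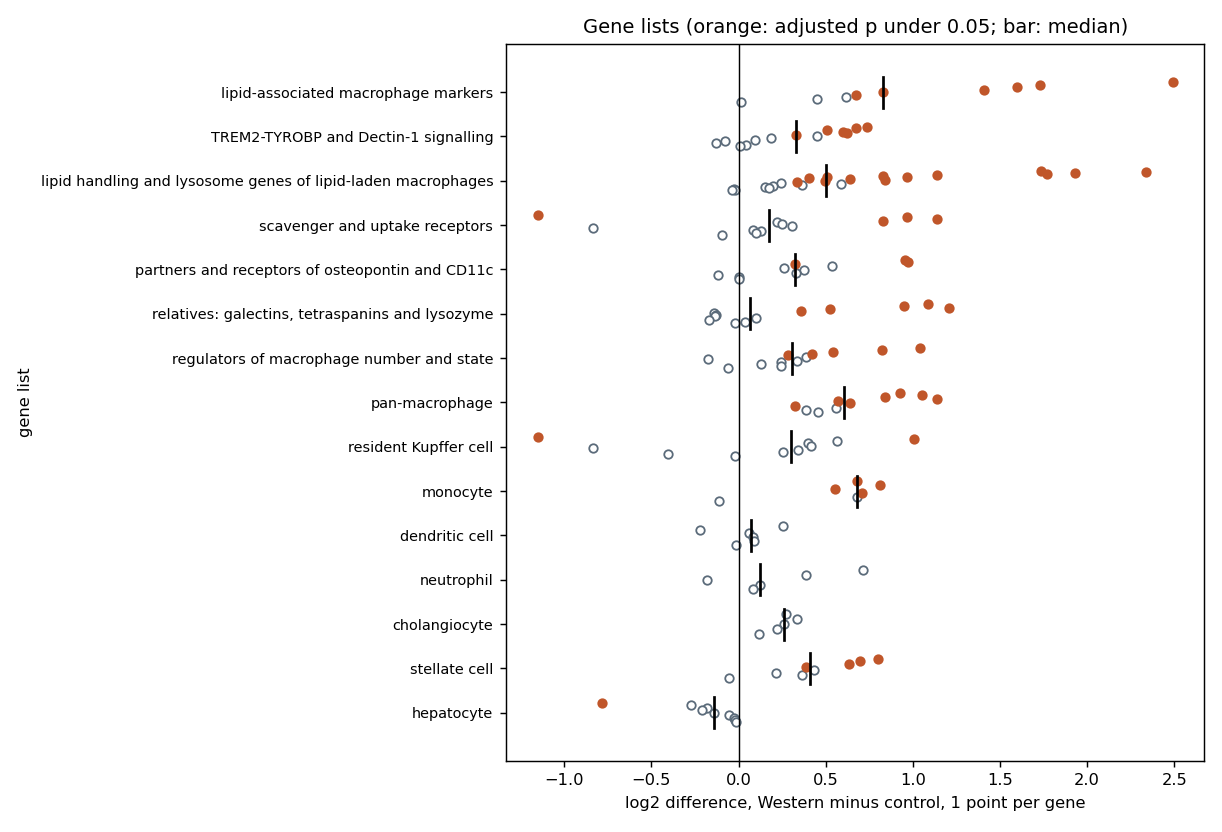
Log2 difference between the Western and the control group for each tested gene of the member list, of the related lists and of the main cell type marker lists, 1 point per gene. Orange points passed the test, and the black bars are the medians, 0.83 for the members against 0.60 for the pan-macrophage markers and -0.14 for the hepatocyte markers.

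Mice of the same diet also differed from each other, and the members were compared with Gpnmb over the 12 Western-fed mice after each group's mean had been removed (8 relations; permutation p with 100000 resamples, adjusted over all genes tested). Lgals3 followed Gpnmb with a Pearson r of 0.93 (permutation p = 2e-05, adjusted p = 0.0273; Spearman rho 0.85, p = 0.00098). Itgax had an r of 0.92 (permutation p = 3e-05, adjusted p = 0.0273; rho 0.88, p = 0.00041), Clec7a 0.91 (p = 6e-05, adjusted p = 0.0364; rho 0.73, p = 0.00886) and Msr1 0.89 (p = 0.00015, adjusted p = 0.0385; rho 0.69, p = 0.0159). Lyz2 had 0.88 (permutation p = 0.00047, adjusted p = 0.0501; rho 0.65, p = 0.0258) and Tyrobp 0.85 (p = 0.00057, adjusted p = 0.0527; rho 0.70, p = 0.0145), both just short of the threshold. An r above 0.8 with Gpnmb was found in these 6 genes and in 2% of all genes, and 0.887% of all genes had an adjusted p under 0.05.

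Cd9 and Trem2 followed Gpnmb less closely. Cd9 had an r of 0.66 (permutation p = 0.0194, adjusted p = 0.205; rho 0.37, p = 0.237) and Trem2 an r of 0.62 (permutation p = 0.0325, adjusted p = 0.258; rho 0.60, p = 0.0424). Within the Western plus quercetin and the Western group (n = 6 each), r was 0.83 and -0.34 for Trem2 and 0.89 and 0.19 for Cd9, while the other 6 genes had 0.92 to 0.98 and 0.62 to 0.90. The difference between the groups in these r was not tested. Without the 2 mice farthest from the median of Gpnmb, Western plus quercetin mouse 6 and Western mouse 2, r was 0.87 for Itgax, 0.82 for Lgals3, 0.79 for Clec7a, 0.78 for Msr1 and for Tyrobp, 0.73 for Lyz2, 0.60 for Trem2 and 0.40 for Cd9. The r of Cd9 thus fell most. Western plus quercetin mouse 2, at 8.07 for Gpnmb where its group's mean was 6.93, was still included. It was the highest of its group in every measured member but Trem2. How far the relations rest on that mouse was not tested. Within the mice numbered 1 to 3 and those numbered 4 to 6 (n = 6 each), r was 0.93 and 0.94 for Lgals3, 0.97 and 0.85 for Itgax, 0.95 and 0.87 for Clec7a, 0.91 and 0.88 for Msr1, 0.93 and 0.92 for Lyz2, 0.91 and 0.84 for Tyrobp, 0.84 and 0.82 for Cd9, and 0.47 and 0.88 for Trem2. Each of these sets holds 1 of the 2 mice left out above. The pan-macrophage marker mean moved in the same mice: it was 8.55 in Western plus quercetin mouse 2 and 7.43 in mouse 6, the ends of that group, and 7.67 in Western mouse 2, where the Western group ran from 7.65 to 8.28. Its part in these relations was not tested.

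**Figure D5:**
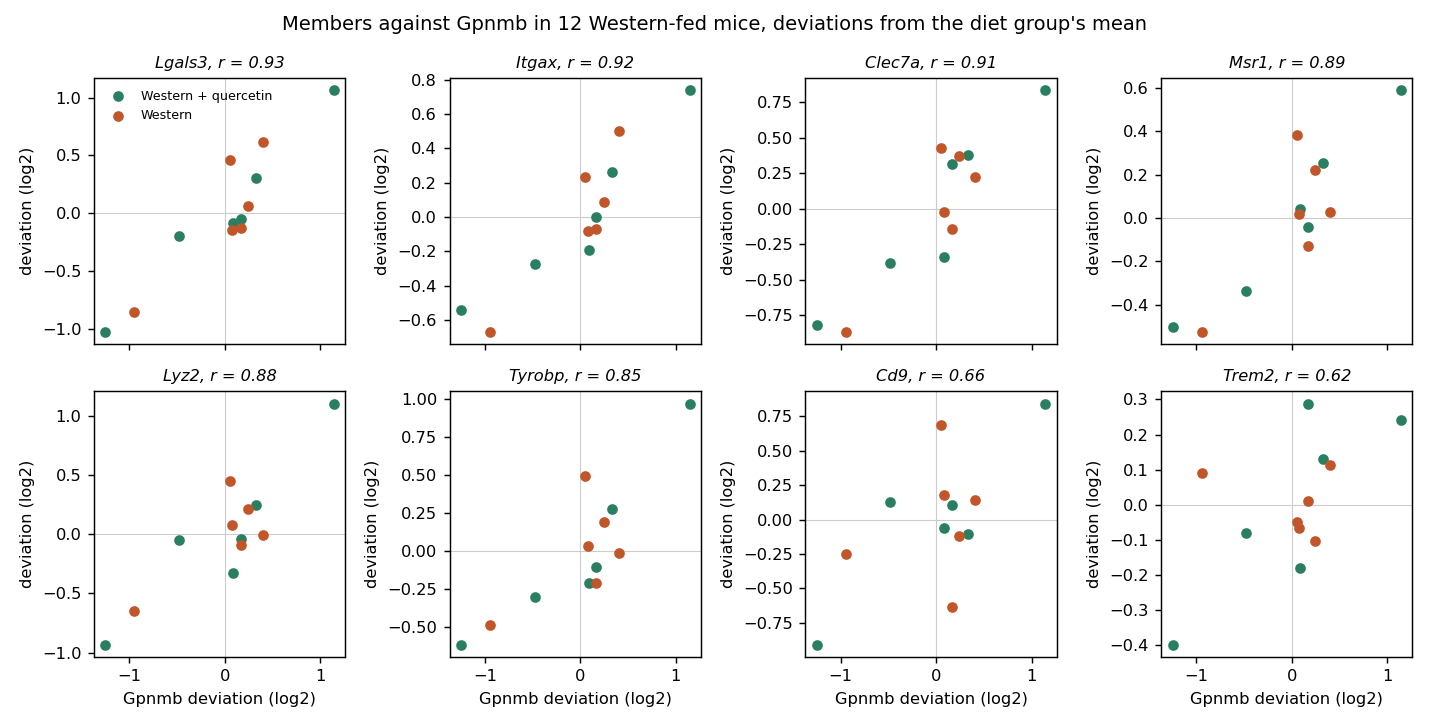
Deviation of each member from its group's mean log2 level against that of Gpnmb, 1 point per mouse, in the Western plus quercetin and Western groups (12 mice). The points of Lgals3, Itgax, Clec7a and Msr1 rise along a line with r from 0.89 to 0.93, and those of Cd9 and Trem2 scatter more.

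The mean of the members' standardised levels ran from -0.88 to 1.73 in the Western plus quercetin group, with a median of 0.34, from -0.37 to 1.03 in the Western group (0.52) and from -1.38 to -0.32 in the control group (-1.07). Control 1 was the highest control, and Western plus quercetin mouse 6 and Western mouse 2 lay below it. Over all 17 samples the genes most like this mean, as a description that follows the diet difference, were Ctsd, a lysosomal protease (r = 0.97), Acot9, an acyl-CoA thioesterase (0.97), Cd5l (0.97), the actin-binding thymosins Tmsb4x (0.97) and Tmsb10 (0.97), Capg (0.96), Rgs10 (0.96) and Cd44 (0.96). With each group's mean removed Ctsd (0.95), Acot9 (0.95), Slc25a4 (0.95), Coro1a, an actin-binding protein of leukocytes (0.94), Cd5l (0.94), the chemokine gene Ccl6 (0.94), Tmsb10 (0.94) and Tmsb4x (0.94) were closest. Of these, Slc25a4 and Coro1a were not called between the Western and the control group (adjusted p = 0.272 and 0.139), and the other named genes rose.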

How the data were processed

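The authors deposited a linear intensity for each probe set and array; how it was derived from the scans is not given in the sources used here. Per the labels' protocols, RNA was column purified, copied by 1-cycle cDNA synthesis and biotin labelled. The table held 45101 probe sets with 0 missing values and 0 columns of unknown sample. After 64 control probe sets were set aside, the others were quantile normalised as log2(value + 16). Of them, 34945 were paired with 1 symbol, 932 with several and 9160 with none, and the last 2 kinds were not named. The brightest probe set stood for a gene, and genes whose mean fell below the 25th percentile were dropped.

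limma 3.58.1 in R 4.3.3 fitted 1 mean per group to 17 samples, with eBayes at default settings, two-sided tests and Benjamini-Hochberg adjustment over all genes. P-values measure the spread between mice and treat the mice as independent. Mice were housed 3 per cage and the cages are not known, so cage could not be modelled. The p-values may be too small if mice of a cage are alike. Single values were tested by exact permutation. On simulated data with 200 of 13645 genes changed by 1 on the log2 scale between the Western and the control group, 93% were recovered with 10 false calls. The simulated noise was independent between genes and no smaller change was simulated, so the recovery of smaller differences is not known. Figures were drawn with matplotlib 3.10.9.

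The members, the lists, the settings and the averaging of control arrays 4 and 5 were chosen with earlier results of these data known. All members were to be named, with up to 4 genes of each list by p in the diet comparison and up to 2 in the quercetin comparison, and the 8 genes most like the members; Adgre1, Clec4d, Irf8, Mitf, Cd81 and other list genes given beyond these were chosen after their values were seen. Added after seeing the data were the scale relative to macrophage markers, the test between numbers 1 to 3 and 4 to 6, and the adjustment of correlations over all genes.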

Additional observations from a re-analysis of the deposited data

Results flagged for a closer look

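In the Western group, Gpnmb in mouse 2 stood apart from the other 5 mice: its log2 level was 6.07, where the next was 7.07 and the highest 7.42 (gap over range 0.741, above Dixon's critical value for 6 samples). It still lay above every control sample. In the control group, Tyrobp in sample 1 stood apart from the other 4, at 8.53, where the next was 8.14 and the lowest 8.02 (gap over range 0.765, above the critical value for 5 samples). Chance flags about 1 in 20 groups. Without Western mouse 2 the Gpnmb difference between the Western and the control group was 2.68, and without control 1 that of Tyrobp was 0.92 (limma, adjusted p = 0.0250), with 7 of the 9 members and 7.08% of all genes called.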

How the results depend on the processing

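Against the control group, 6 members were called in the Western group and 4 in the Western plus quercetin group. Leaving out 1 sample at a time gave 4 to 7 and 4 to 5, and 0 in every case between the Western plus quercetin and the Western group. With mice numbered 1 to 3 alone 1 member was called in the Western against the control group, and with the actin ratio as a covariate 3. In the Western plus quercetin against the control group 8 were called with the values as deposited, 0 with the numbers 4 to 6 alone and 1 with the actin ratio. The number of genes called over the array fell too in the smaller fits, to 89 with numbers 1 to 3 and 298 with numbers 4 to 6 (Western against control), 222 and 37 (Western plus quercetin against control), and to 227 and 155 with the actin ratio; for the values as deposited it was 3725 and 3255. For the Western plus quercetin against the control group it was 466 with only the 2 groups compared and at least 456 with a sample left out; without a sample the Western against control count was at least 748. The call of Gpnmb in the Western against the control group was kept in all 33 alternatives, and those of Lgals3 and Clec7a in all but numbers 1 to 3 alone. The labels do not say what the mouse numbers stand for. Correlations of the deviations of same-numbered mice ran from -0.26 to 0.33 and were above 0.1 for 5 of 6 numbers in each comparison, short of all 6, so the numbers were not taken as pairs; 10 of 18 arrays were closest to their own number. With the replicate block, and control 4 and 5 as 2 samples, 7 members and 1734 genes (12.7%) were called in the Western against the control group, 0 in the quercetin comparison, and 5 members and 1209 genes (8.86%) in the Western plus quercetin against the control group. Some small differences changed sign. That of Trem2 in the Western against the control group was -0.075 with array medians centred, -0.0020 with a pseudocount of 64 and -0.13 with numbers 1 to 3 alone, and ran from -0.071 to 0.14 with a sample left out. In the quercetin comparison Cd9 was -0.013 with medians centred and -0.13 with numbers 4 to 6 alone, and Msr1 was 0.016 as the mean of its probe sets. With numbers 1 to 3 alone the quercetin differences were 0.17 for Clec7a, 0.46 for Gpnmb, 0.17 for Itgax, 0.27 for Lgals3, 0.35 for Lyz2, 0.012 for Msr1 and 0.11 for Tyrobp. With a sample left out they ran from -0.32 to 0.16 for Gpnmb, -0.40 to 0.021 for Lgals3, -0.25 to 0.16 for Lyz2, -0.26 to 0.056 for Tyrobp, -0.14 to 0.21 for Cd9 and -0.22 to 0.0023 for Msr1. The cause of these changes was not tested. Brightness limits Trem2 and the Gpnmb level of controls, which lie near the dim limit, and the number of mice limits all intervals.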
